A study of Mus musculus with 6 samples.

Results

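The urea cycle genes examined here are the 9 genes *Cps1*, *Otc*, *Ass1*, *Asl*, *Arg1*, *Nags*, *Slc25a15*, *Slc25a13* and *Gls2*. They were chosen by symbol, and each matched 1 row among the 34745 genes in the deposited table. All 9 passed the filter on low counts, so none was left out of the fit over 13892 genes. RNA-seq was performed on 6 liver tumors of mice at 26 weeks of age, with 1 library per tumor. Every mouse had received 25 mg/kg of diethylnitrosamine (DEN, a carcinogen that hepatocytes activate) when 2 weeks old, and 0.5 ml/kg of 10% CCl4, a hepatotoxin, from 6 weeks of age. The 3 control tumors, replicates 7, 66 and 71, came from Prmt3f/f mice, which carry the floxed *Prmt3* alleles without Cre and are labelled WT. The 3 other tumors, replicates 92, 93 and 94, came from Prmt3LKO mice, which carry the same floxed alleles with Alb-Cre and are labelled Prmt3-KO. Albumin-driven Cre acts in cells of the hepatocyte lineage, so immune and stromal cells of a Prmt3LKO tumor keep an intact *Prmt3*. The labels do not tell whether tumors of a group came from separate mice, and if they did not, the p-values measure only the spread between these samples.

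Hepatocytes dispose of ammonia by making urea, in a cycle that begins in mitochondria and ends in the cytosol. Nags makes N-acetylglutamate, without which Cps1 cannot form carbamoyl phosphate, and Otc joins carbamoyl phosphate to ornithine to give citrulline. Citrulline leaves the mitochondrion through the ornithine carrier Slc25a15, and Ass1, Asl and Arg1 then complete the cycle. The carrier Slc25a13 exports the aspartate that Ass1 uses, and Gls2, the liver glutaminase, releases ammonia from glutamine close to Cps1. In normal liver these steps are most active around the portal vein, and liver tumors are known for variable loss of urea cycle expression.

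Between 18440244 and 27976598 reads were counted per tumor, and the 9 genes took 0.263% to 0.600% of them. The presence of hepatocyte RNA was checked with 20 hepatocyte markers, of which 19 were found by symbol, all with at least 11019 counts in every tumor. These markers do not separate tumor from other liver tissue, so a share of non-tumor liver in the samples was not tested. *Prmt3*, the targeted gene, was measured at 6.60 to 10.2 CPM (the read count relative to library size, after TMM scaling for library composition) in Prmt3f/f tumors and at 2.03 to 3.82 CPM in Prmt3LKO tumors, and the groups did not overlap (exact two-sided permutation test, p = 0.1). Its log2 fold change was -1.55, with an adjusted p of 0.592 from edgeR's quasi-likelihood test and of 0.00357 from DESeq2, so the main test did not call the targeted gene itself. The adjusted p over all 13 alternatives was between 0.00357 and 0.996. The exact p of 0.1 is the smallest that 3 tumors against 3 allow, here and in every exact test below. The counts are reads summed over all cells of a tumor, so fewer hepatocytes and less RNA per hepatocyte cannot be told apart.

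The promoters of 5 of the 9 genes were found in the RefSeq table for GRCm38.p6, namely those of *Otc*, *Ass1*, *Nags*, *Slc25a15* and *Slc25a13*. *Cps1*, *Asl*, *Arg1* and *Gls2* were without an entry. Below are the 250 bases before the start site of *Slc25a15*, which had the largest difference between genotypes, and of *Otc* and *Nags*, which were among the most and the least variable genes between tumors. Letters in capitals are matches, on either strand, to any of 8 motifs searched. The core promoter motifs were the TATA box, spelled TATAAA, the CCAAT box, spelled as its name, and the GC box, which is spelled GGGCGG. Motifs of regulators of hepatocyte genes were TTGCNNAA for the C/EBP factors, TGACGTCA for the cAMP response element, CAAAGTCCA for the nuclear receptor Hnf4a, TGTTTAC for the forkhead factors and TGTTCT for the glucocorticoid receptor. No matches overlapped in these windows.
*Slc25a15*, chr8:22398622-22398871, minus strand: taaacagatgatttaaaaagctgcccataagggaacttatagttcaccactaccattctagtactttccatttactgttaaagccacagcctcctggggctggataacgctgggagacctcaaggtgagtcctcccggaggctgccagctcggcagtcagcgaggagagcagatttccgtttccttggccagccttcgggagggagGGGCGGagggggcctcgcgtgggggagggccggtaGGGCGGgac
*Otc*, chrX:10252055-10252304, plus strand: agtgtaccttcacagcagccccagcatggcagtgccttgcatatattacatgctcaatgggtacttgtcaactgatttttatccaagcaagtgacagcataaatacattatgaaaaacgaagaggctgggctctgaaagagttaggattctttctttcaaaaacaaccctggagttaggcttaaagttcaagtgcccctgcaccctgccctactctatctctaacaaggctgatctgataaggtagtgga
*Nags*, chr11:102145263-102145512, plus strand: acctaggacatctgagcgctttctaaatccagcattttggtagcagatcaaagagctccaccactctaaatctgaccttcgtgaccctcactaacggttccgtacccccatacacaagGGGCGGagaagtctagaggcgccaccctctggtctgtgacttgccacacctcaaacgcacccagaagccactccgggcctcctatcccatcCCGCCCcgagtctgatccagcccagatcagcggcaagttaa
The window of *Slc25a15* held 2 GC boxes, 44 and 9 bases before the start, and that of *Nags* held 2, 132 and 41 bases before it. The window of *Ass1* held 1, and that of *Slc25a13* held 1 CCAAT box. In the *Otc* window, whose GC content was 43.6% against 57.6% in *Slc25a15*, none of these letters were found. GC boxes were present in 32.7% and CCAAT boxes in 33.9% of all 32851 promoter windows of the same length. The other motifs were in 0 of the 5 windows, and among all promoters in 12.4% (TATA box), 9.56% (C/EBP), 1.55% (cAMP response element), 0.384% (Hnf4a), 3.17% (forkhead) and 16.1% (glucocorticoid receptor). The table gives 2 start sites for *Slc25a15*, and the one shown coincides with the 5′ end of the gene in the deposited table.

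The level of each gene relative to its length was compared first, as FPKM deposited by the authors. *Arg1*, which splits arginine into urea and ornithine, and *Cps1*, the entry enzyme, had the highest means over the 6 tumors, 695 and 389 FPKM. *Ass1* followed at 134 FPKM, and *Arg1*, *Cps1* and *Ass1* stood in this order in 6 of 6 tumors. The mean was 47.8 FPKM for *Slc25a15* and 45.9 FPKM for *Otc*, which were not separated, with *Slc25a15* above *Otc* in 3 of 6 tumors. *Asl*, *Gls2* and *Slc25a13* had means of 30.6, 28.2 and 25.0 FPKM. Of these neighbors, *Asl* was above *Gls2* in only 2 of 6 tumors, and the log2 difference of *Gls2* over *Slc25a13* was 0.17 ± 0.17 (SD, n = 6). *Nags*, whose product is a regulator of Cps1 rather than a bulk enzyme, was lowest at 12.3 FPKM and stood below *Slc25a13* in 6 of 6 tumors.

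This order depends in part on the gene lengths behind the FPKM. Count and FPKM of *Gls2* together imply a length of 7682 bases, 2.21 times the 3474 bases of its merged exons in GENCODE M21, and those of *Nags* imply 4398 bases, more than the 3965 bases that the gene spans. With the GENCODE lengths, *Gls2* moved to 62.3 FPKM and the fourth place, *Slc25a15* moved to 29.3 FPKM, and *Arg1* was above *Cps1* in 4 of 6 tumors. *Arg1*, *Cps1* and *Ass1* remained the top 3 and *Nags* the lowest.

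**Figure D1:**
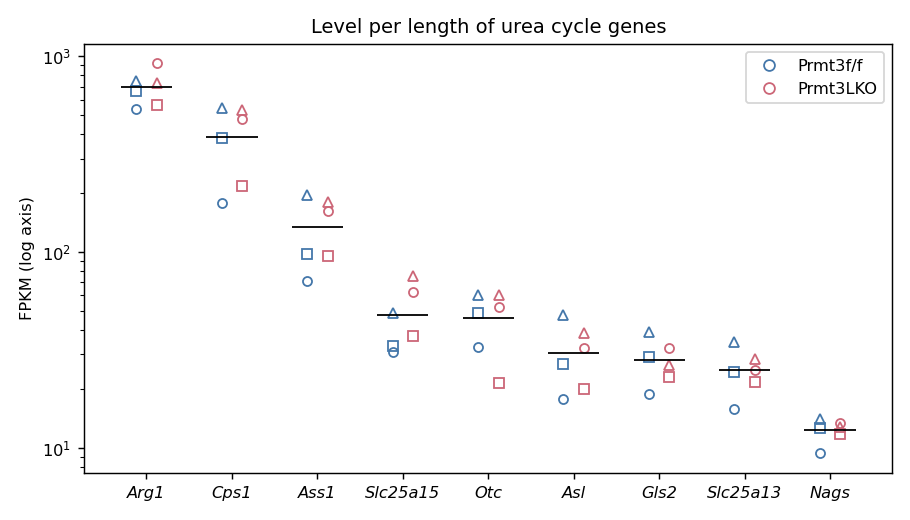
FPKM of the 9 urea cycle genes (log axis), with 1 open symbol for each tumor in the color of its group and a line at the mean over 6 tumors. *Arg1* and *Cps1* lie highest, at means of 695 and 389 FPKM, and *Nags* lies lowest, at 12.3 FPKM.

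The mitochondrial enzymes varied more within a genotype than between genotypes. *Cps1* (ENSMUSG00000025991, chromosome 1 of GRCm38 from 67123026 to 67231259) was measured at 958, 2164 and 2964 CPM in Prmt3f/f replicates 7, 66 and 71, and at 2815, 1156 and 3006 CPM in Prmt3LKO replicates 92, 93 and 94. Replicates 7 and 93 were low and the other tumors were high, with both genotypes on each side, so the groups overlapped. Prmt3f/f tumors had a mean of 2029 ± 1010 CPM and Prmt3LKO tumors of 2326 ± 1017 CPM (SD, n = 3 each), a log2 fold change of 0.20 with a 95% interval from -0.94 to 1.33 (edgeR's quasi-likelihood test, adjusted p = 0.984).
*Otc* (ENSMUSG00000031173, chromosome X from 10252305 to 10321024) had 139, 220 and 259 CPM in the Prmt3f/f tumors and 241, 90.7 and 267 CPM in the Prmt3LKO tumors, in the same order of replicates. Prmt3LKO replicate 93 was the lowest tumor and replicate 94 the highest, so the Prmt3LKO tumors spanned the whole range of the control tumors. Its log2 fold change was -0.045, with a 95% interval from -0.997 to 0.907 (adjusted p = 0.996, edgeR).
*Nags* (ENSMUSG00000048217, chromosome 11 from 102145513 to 102149477) was the least variable of the 9 genes. It was measured at 39.9, 56.7 and 60.3 CPM in Prmt3f/f tumors and at 62.0, 49.8 and 57.2 CPM in Prmt3LKO tumors. The highest tumor was 1.55-fold above the lowest, against 3.14-fold for *Cps1* and 2.95-fold for *Otc*. The log2 fold change of *Nags* between genotypes was 0.10, with a 95% interval from -0.33 to 0.54 (adjusted p = 0.971, edgeR), which is the narrowest of the 9. The antisense gene Gm11586 overlaps 698 bases of the locus, and since the use of strand in counting is not given in the sources used here, their reads cannot be told apart.

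In the cytosolic steps the groups also overlapped. *Ass1* (ENSMUSG00000076441, chromosome 2 from 31470207 to 31520672), which condenses citrulline with aspartate, was measured at 205, 295 and 566 CPM in Prmt3f/f tumors and at 506, 270 and 541 CPM in Prmt3LKO tumors. The highest and the lowest tumor were both Prmt3f/f. The log2 fold change was 0.30 (95% interval from -0.66 to 1.26, adjusted p = 0.960, edgeR), and it moved to 0.81 without Prmt3f/f replicate 71, to 0.56 without Prmt3LKO replicate 93 and to 0.022 without Prmt3f/f replicate 7.
*Asl* (ENSMUSG00000025533, chromosome 5 from 130011258 to 130029247), which releases arginine and fumarate, had 114, 183 and 313 CPM in Prmt3f/f tumors and 225, 128 and 261 CPM in Prmt3LKO tumors. Its group means, 203 and 205 CPM, differed far less than the tumors of either group, and the log2 fold change was 0.0092 (95% interval from -0.92 to 0.94, adjusted p = 0.998, edgeR). The sign of so small a value turned with the scaling of the libraries, to -0.024 without TMM.
*Arg1* (ENSMUSG00000019987, chromosome 10 from 24915208 to 24927470) had 774, 1008 and 1091 CPM in Prmt3f/f tumors and 1430, 800 and 1094 CPM in Prmt3LKO tumors. Replicate 92 stood above the other tumors, while replicate 93 lay within the control range and replicate 94 was level with its upper end. The log2 fold change was 0.21 (95% interval from -0.40 to 0.83, adjusted p = 0.957, edgeR). Myeloid cells can also express *Arg1*. Of 11 macrophage and neutrophil markers tested, 8 were lower in Prmt3LKO tumors at an unadjusted p under 0.05 (edgeR), beside 4.37% of all genes. The summed level of all 12 markers was 510 to 1105 CPM in Prmt3f/f tumors and 390 to 488 CPM in Prmt3LKO tumors, with *Ly6g* at 0 in 5 of 6 tumors, and the part of these cells in the level of *Arg1* was not tested.

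The largest difference between genotypes was that of the ornithine carrier. *Slc25a15* (ENSMUSG00000031482, chromosome 8 from 22375554 to 22398621) was measured at 103, 116 and 165 CPM in Prmt3f/f replicates 7, 66 and 71, and at 226, 124 and 262 CPM in Prmt3LKO replicates 92, 93 and 94. Replicates 92 and 94 stood above every control tumor, whereas replicate 93 lay between control replicates 66 and 71. Prmt3f/f tumors had a mean of 128 ± 32.5 CPM and Prmt3LKO tumors of 204 ± 71.8 CPM (SD, n = 3 each). This is a 1.59-fold difference, with a 95% interval from 0.972 to 2.61 (log2 fold change 0.67, standard error 0.31). It did not pass the test (unadjusted p = 0.0615, adjusted p = 0.774, edgeR's quasi-likelihood test), with p = 0.2 in the exact two-sided permutation test. The unadjusted p was 0.0355 with DESeq2. With edgeR it was 0.0442 without a filter, 0.0298 without Prmt3f/f replicate 71 and 0.00692 without Prmt3LKO replicate 93. It was higher than in the main fit without replicates 7, 66, 92 and 94, at 0.168, 0.148, 0.151 and 0.208 respectively (edgeR). Under the other alternatives, each by its own test, it lay between 0.0609 (edgeR without TMM) and 0.0955 (log2(FPKM + 1) with limma). The adjusted p over all 13 alternatives was between 0.588 and 0.9998.
*Slc25a13* (ENSMUSG00000015112, chromosome 6 from 6041218 to 6217173), the aspartate carrier, had 82.8, 135 and 185 CPM in Prmt3f/f tumors and 143, 112 and 156 CPM in Prmt3LKO tumors. All 3 Prmt3LKO tumors fell between the lowest and the highest control. Its log2 fold change was 0.028 (95% interval from -0.65 to 0.70, adjusted p = 0.996, edgeR), and it turned to -0.067 when libraries were scaled to hepatocyte markers.
*Gls2* (ENSMUSG00000044005, chromosome 10 from 128194457 to 128210004) was measured at 140, 230 and 296 CPM in Prmt3f/f tumors and at 262, 170 and 206 CPM in Prmt3LKO tumors. Here too the control tumors enclosed the Prmt3LKO tumors, and the log2 fold change was -0.065 (95% interval from -0.75 to 0.62, adjusted p = 0.990, edgeR). The locus shares 97 bases with the neighboring gene *Spryd4*.

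**Figure D2:**
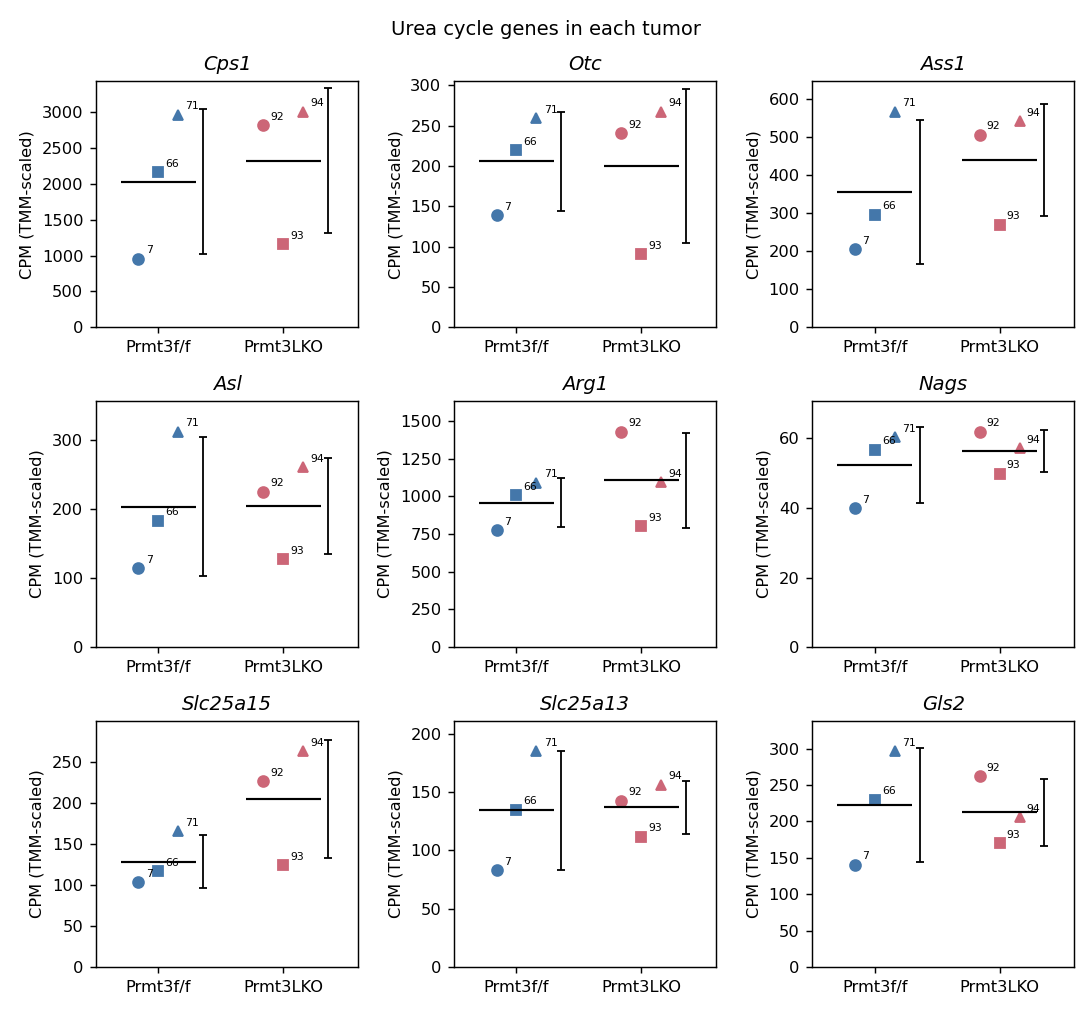
CPM of each urea cycle gene by genotype, with 1 point per tumor labelled by its replicate number, a line at the group mean and a bar of ± 1 SD beside it (n = 3). The groups overlap in all 9 panels, and replicates 7 and 93 are the lowest tumors of their groups in each.

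Over the 9 genes, 0 passed an adjusted p of 0.05 with a fold of at least 2 or at most 0.5, the limits used in the study, in either direction. The quasi-likelihood test called 0% of the 13892 genes lower and 0% higher at these limits. DESeq2 called 0.310% of genes lower and 0.0648% higher, and again 0 of the 9 genes. At an unadjusted p under 0.05, edgeR found 0 of the 9 genes, beside 6.56% of all genes tested, while DESeq2 found 1, *Slc25a15*. The share of all genes at this p was not counted for DESeq2, so its 1 gene cannot be set beside a background. In 0 of the 9 genes did all tumors of a group lie on the same side of the other group, beside 12.2% of all genes tested.
The log2 fold change was above 0 in 7 of the 9 genes, beside 50.1% of all genes, and its median was 0.10, against 0.00037 for all genes. These signs rested on single tumors. Without Prmt3f/f replicate 7, 3 of the 9 genes were above 0 and the median was -0.15, and without Prmt3LKO replicate 93 all 9 were above 0 and the median was 0.30. Without Prmt3f/f replicate 71, 9 were above 0 and the median was 0.33, whereas 4 were above 0 without Prmt3LKO replicate 92 or 94. The 95% intervals of *Otc*, *Asl*, *Arg1*, *Nags*, *Slc25a13* and *Gls2* lay between the limits of 0.5 and 2 on both sides, while those of *Cps1*, *Ass1* and *Slc25a15* reached 2.52-fold, 2.40-fold and 2.61-fold.

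**Figure D3:**
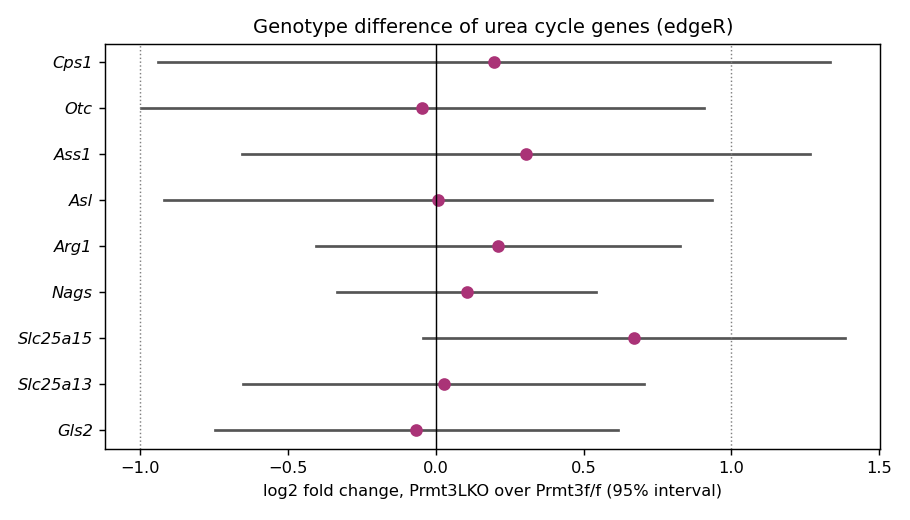
Log2 fold change of Prmt3LKO over Prmt3f/f tumors for each urea cycle gene (points) with its 95% interval (lines) from edgeR. Dotted lines mark a fold of 0.5 and of 2. All 9 intervals cross 0, and *Slc25a15* lies farthest from it, at 0.67.

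As an average, the 9 genes differed more between individual tumors than between genotypes. *Slc25a15* was the exception, as its log2 fold change of 0.67 was above its SD within groups, 0.48. Correlations of log2 CPM between pairs of the genes ran from 0.53 (*Slc25a15* and *Gls2*) to 0.96 (*Cps1* and *Asl*). Relative to its own mean over the 6 tumors, the average log2 level of the 9 genes was -0.64, -0.025 and 0.41 in Prmt3f/f replicates 7, 66 and 71 and 0.36, -0.47 and 0.36 in Prmt3LKO replicates 92, 93 and 94. Replicate 7 was the lowest tumor for 8 of the 9 genes and replicate 93 for *Otc*. Replicates 7 and 93 were the lowest pair of tumors for 8 of the 9 genes, with *Slc25a15* as the exception, where replicate 66 was below replicate 93. This held for 11.5% of all genes tested. As this pair of tumors was picked from the values of the 9 genes themselves, their own share describes the pattern and is no test of it.
The spread was unequal among steps. *Cps1* had the largest SD of log2 CPM over the 6 tumors, 0.73, followed by *Otc* and *Ass1* at 0.62 and *Asl* at 0.58. *Slc25a15* had 0.55, *Slc25a13* and *Gls2* had 0.40, *Arg1* had 0.33 and *Nags* had 0.24. The median SD over the 7987 genes with a mean of at least 10 CPM was 0.23 and the upper quartile 0.33, so *Nags* lay close to the median and *Arg1* at the upper quartile, with the other 7 genes above it. *Asl* and *Slc25a13* followed the average of the other 8 genes most closely, with a root mean square difference of 0.17 on the log2 scale for both. *Slc25a15* and *Otc* followed it least, at 0.31.

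**Figure D4:**
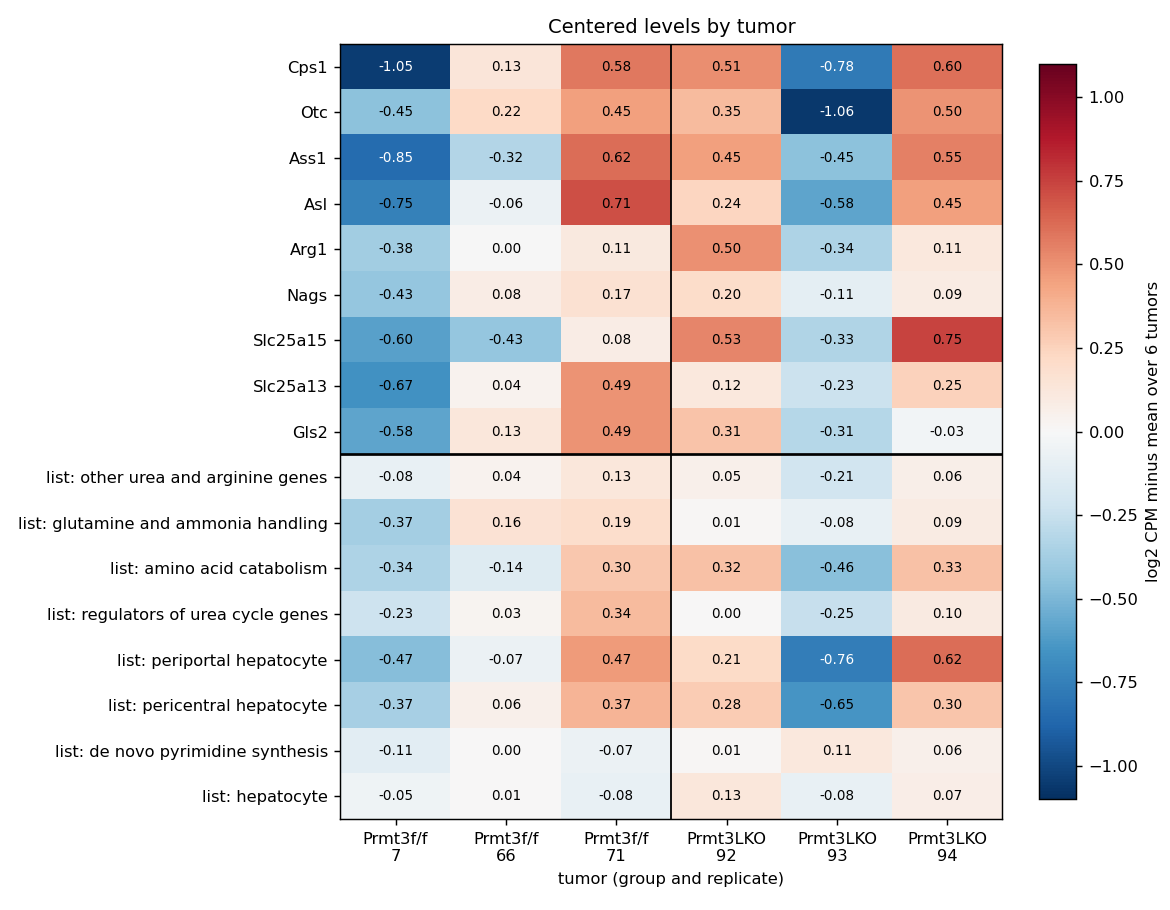
Log2 CPM of each urea cycle gene (upper rows) and the mean of each gene list (lower rows) in each tumor, minus the mean over the 6 tumors. Blue cells mark Prmt3f/f replicate 7 and Prmt3LKO replicate 93 in the urea cycle rows (-1.05 and -0.78 for *Cps1*), while the hepatocyte list stays between -0.084 and 0.13.

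Total counts of replicates 7 and 93, 21040087 and 21299186, lay within the range of the others, and their TMM factors, 1.03 and 1.04 respectively, were the highest of the 6. Hepatocyte plasma protein genes differed less between tumors. The mean centered log2 level of these 19 markers was -0.047 in replicate 7 and -0.077 in replicate 93, and the 2 tumors were the lowest pair in 4 of the 19, that is 21.1%, beside 11.5% of all genes and 8 of the 9 urea cycle genes. Of the cell type lists, the cholangiocyte markers summed to 4104 CPM in replicate 7 and to 208 to 1016 CPM in the other 5 tumors, with 283 CPM in replicate 93. *Spp1*, a secreted glycoprotein that tumor cells and macrophages can also make, gave 4075 CPM of this sum in replicate 7, whereas *Krt19*, a defining marker, had 2.77 CPM there and 1.17 to 4.37 CPM in the others. Of 8 endothelial markers tested, 4 had replicates 7 and 93 as the lowest pair, that is 50%. The part of cells with either set of markers in the levels of the urea cycle genes was not tested. Markers of kidney tubule and immune cells were compared between genotypes, and 0 of them passed at an adjusted p with edgeR. The 12 kidney markers, which are of interest as kidney tubules express *Ass1* and *Asl*, summed to 3.65 to 5.23 CPM in Prmt3f/f tumors and to 9.90 to 13.98 CPM in Prmt3LKO tumors, of which only 4 passed the filter on low counts and 3 of these were higher at an unadjusted p under 0.05, beside 2.20% of all genes. *Aqp2* among them was at 0 in 2 Prmt3f/f tumors. T cell markers summed to 27.2 to 32.7 CPM in Prmt3f/f tumors and to 6.46 to 17.8 CPM in Prmt3LKO tumors, with 6 of 8 lower at an unadjusted p under 0.05, beside 4.37% of all genes. B cell markers summed to 11.3 to 13.0 CPM and to 7.94 to 10.9 CPM, with 0 of 7 tested at an unadjusted p under 0.05. Their part in the levels of *Ass1*, *Asl* and the other urea cycle genes was not tested.

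Other genes were then examined with 7 lists of known genes. The lists covered nitrogen metabolism, pyrimidine synthesis, regulators of urea cycle genes and markers of the portal and central liver lobule. Together the 7 lists held 154 genes besides the urea cycle genes, of which 151 were tested. At an unadjusted p under 0.05, 1 was lower and 4 were higher in Prmt3LKO tumors, beside 4.37% of all genes lower and 2.20% higher. None of the 151 passed the limits at an adjusted p with edgeR or DESeq2, and their median log2 fold change was 0.040.
Among 20 other urea and arginine genes tested, 0 had an unadjusted p under 0.05. *Slc7a2*, an arginine transporter and the most abundant, had 345 ± 117 CPM in Prmt3f/f and 353 ± 71.4 CPM in Prmt3LKO tumors (SD, n = 3 each). *Nos2*, the inducible enzyme that turns arginine into nitric oxide, had the largest log2 fold change, -0.92 (adjusted p = 0.884, edgeR), from levels of 1.77 ± 1.09 and 0.938 ± 0.509 CPM (SD, n = 3 each). Replicates 7 and 93 were the lowest pair in 8 of these 20 genes, that is 40%.
In glutamine and ammonia handling, 1 of 28 genes was lower and 1 was higher at an unadjusted p under 0.05. *Slc7a6*, an amino acid transporter, had 2.12, 2.85 and 1.58 CPM in Prmt3f/f tumors and 1.03, 1.13 and 1.26 CPM in Prmt3LKO tumors (log2 fold change -0.93, adjusted p = 0.684, edgeR). *Aspg*, an asparaginase, had 162, 133 and 172 CPM against 209, 178 and 245 CPM (log2 fold change 0.44, adjusted p = 0.751, edgeR). The groups did not overlap for *Slc7a6* and *Aspg*. In this list of 28 genes that held for 2 genes on the lower side and 1 on the higher side. It held for 12.2% of all genes tested, in either direction. Of the others, *Slc38a3*, a glutamine transporter, had the highest level, with 1112 ± 308 and 1122 ± 225 CPM (SD, n = 3 each). The lowest pair was replicates 7 and 93 in 10 of these 28 genes, that is 35.7%.
Amino acid catabolism, which delivers nitrogen to the cycle, had 2 of 48 genes higher and 0 lower at an unadjusted p under 0.05. *Acmsd*, of tryptophan breakdown, had 25.0, 29.4 and 23.2 CPM in Prmt3f/f tumors and 50.3, 33.2 and 59.1 CPM in Prmt3LKO tumors (log2 fold change 0.88, adjusted p = 0.592, edgeR). *Amdhd1*, of histidine breakdown, had 125, 96.9 and 122 CPM against 153, 142 and 164 CPM (log2 fold change 0.42, adjusted p = 0.693, edgeR). *Etnppl* had the largest log2 fold change of the others, 0.999 with a standard error of 0.90. *Mat1a*, which makes S-adenosylmethionine and was the most abundant, had 616 CPM in replicate 7 and 856 CPM in replicate 93, against 1809 to 2294 CPM in the other tumors. Replicates 7 and 93 were the lowest pair in 22 of these 48 genes, that is 45.8%.

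Regulators of urea cycle genes had 0 of 18 genes at an unadjusted p under 0.05. *Hnf4a*, a nuclear receptor that maintains hepatocyte expression, was the most abundant and stayed between 622 and 760 CPM in all tumors, with replicate 93 lowest and replicate 7 second lowest. In 8 of these 18 genes, that is 44.4%, replicates 7 and 93 were the lowest pair, beside 11.5% of all genes. *Nr0b2*, a repressor of nuclear receptors, had the largest log2 fold change, -0.55 (adjusted p = 0.907, edgeR).
Genes of the portal and of the central end of the liver lobule were compared since the urea cycle is periportal and glutamine synthesis pericentral. An unadjusted p under 0.05 was found for 0 of 17 periportal and 0 of 19 pericentral genes. Both lists were low in the same tumors as the urea cycle genes, which were the lowest pair in 47.1% of the periportal and 52.6% of the pericentral genes, beside 11.5% of all genes. The mean centered log2 level was -0.47 in replicate 7 and -0.76 in replicate 93 for the periportal list, and -0.37 and -0.65 for the pericentral list. The periportal *Hsd17b6*, which acts on steroids, had the largest log2 fold change, 1.44 (standard error 0.79, adjusted p = 0.817, edgeR), and rested on replicate 94, with 367 CPM against 24.6 to 96.3 CPM elsewhere. *Serpina1c*, which encodes a protease inhibitor, was the most abundant of the list and had a log2 fold change of 0.16. Of the pericentral genes, *Cyp2e1*, which activates CCl4 and DEN, had 166 CPM in replicate 7 and 244 CPM in replicate 93, against 1057 to 1330 CPM in the other tumors, and *Lect2* had the largest log2 fold change, -0.54.
*Gls2* was set against *Glul*, glutamine synthetase, which returns ammonia to glutamine at the central end. *Glul* had 51.1, 162 and 169 CPM in Prmt3f/f tumors and 125, 82.0 and 109 CPM in Prmt3LKO tumors, so it too was lowest in replicates 7 and 93. The log2 ratio of *Gls2* to *Glul*, which compares levels not scaled by length, was 0.92 ± 0.49 in Prmt3f/f and 1.01 ± 0.086 in Prmt3LKO tumors (SD, n = 3 each), a difference of 0.087 (exact two-sided permutation test, p = 0.7).
Lastly, *Cps1* was set against *Cad*, which makes carbamoyl phosphate for pyrimidines in the cytosol of proliferating cells. *Cad* had 11.4, 23.8 and 16.4 CPM in Prmt3f/f tumors and 18.9, 22.6 and 15.2 CPM in Prmt3LKO tumors. The log2 ratio of *Cps1* to *Cad* was 6.38, 6.50 and 7.49 in Prmt3f/f and 7.21, 5.67 and 7.62 in Prmt3LKO tumors, with Prmt3LKO replicates at both ends. The difference of 0.046 was within the spread of either group (exact two-sided permutation test, p = 0.9), and its sign turned in 4 of the 6 fits that each left out 1 tumor. Of 10 pyrimidine genes, *Ctps*, which makes CTP, was the 1 with an unadjusted p under 0.05, at 8.54, 9.33 and 8.02 CPM in Prmt3f/f and 10.2, 17.6 and 12.0 CPM in Prmt3LKO tumors (log2 fold change 0.63, adjusted p = 0.684, edgeR). Of its other genes, *Rrm2* had the largest log2 fold change, 0.36, and *Umps* the highest level, with a log2 fold change of 0.23. The lowest pair was replicates 7 and 93 in 2 of the 10 pyrimidine genes, that is 20%.

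All other genes, leaving out predicted Gm and Rik entries, were ranked by how closely their centered log2 CPM over the 6 tumors followed the average of the 9 urea cycle genes. The closest of the 7775 such genes with a mean of at least 10 CPM were *Mfhas1*, *Mtmr4*, *Abcc6*, *Sord*, *Fzd4* and *Lcat*, with root mean square differences of 0.072 to 0.10 on the log2 scale, against a median of 0.46. *Abcc6* is a hepatocyte membrane transporter, *Sord* is sorbitol dehydrogenase, *Fzd4* is a Wnt receptor and *Lcat* esterifies plasma cholesterol. *Sord*, for example, was at -0.79 in replicate 7 and -0.45 in replicate 93. The genes closest to *Cps1* alone were *Abhd15*, *Suox* (sulfite oxidase) and *Glt1d1*, at 0.11 to 0.12, against a median of 0.69. With 6 tumors and 7775 genes some close matches arise by ranking alone, so these are given as a description.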

How the data were processed

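Total RNA of 6 liver tumors was made into mRNA libraries and sequenced by the authors as 150 bp paired-end reads. The submitters' processing notes name GRCm38, bcl2fastq 2.19, HISAT2 2.0.4 (an aligner) and StringTie 1.3.0. The counting tool, annotation release and use of strand are not given in the sources used here. The authors deposited 1 table with raw read counts per gene and FPKM values, in which the count is scaled to gene length and library size. All 12 value columns were assigned to tumors by title, and 0 were unused.

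Counts were filtered with filterByExpr (minimum count 10, minimum total 15), scaled by TMM and fitted with edgeR 4.0.16 (R 4.3.3), whose quasi-likelihood F-test gave the p-values. These were adjusted by the Benjamini-Hochberg method over all genes tested. Intervals are 95% and use the t distribution of that test. Log2 CPM used a prior count of 2. A count of 0 allows up to 0.107 to 0.163 CPM (3 counts, counting error only). Alternatives were DESeq2 1.42.0, library size without TMM, no filter, a mean of at least 1 CPM, limma-voom (limma 3.58.1), log2(FPKM + 1), scaling to hepatocyte markers and each tumor left out. On data simulated from these tumors, with genes changed 4-fold, edgeR recovered 155 of 194 changed genes among 13688 tested, with 10 false calls. DESeq2 recovered 168 of the 194, with 28 false calls. In the real data edgeR's test did not call *Prmt3* (adjusted p = 0.592, log2 fold change -1.55), and DESeq2 did (0.00357).

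The 9 genes and all lists were chosen with earlier results of these data known. Genes of lists are named if their unadjusted p was under 0.05 or if, among the others, they had the largest fold change or the highest level. A gene that this rule names is not reported here. *Spp1*, *Ly6g* and *Aqp2* were named after their values were seen. Positions are those of the deposited table, whose build matches the annotation used (GENCODE M21, GRCm38).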

Additional observations from a re-analysis of the deposited data

How the results depend on the processing

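The count of urea cycle genes past the limits was 0 under all 13 alternatives, as was the count in the 7 other gene lists under the 11 run for them. Calls over all genes were counted under 11 alternatives, not with log2(FPKM + 1) or hepatocyte scaling. DESeq2 called 43 lower and 9 higher and the fit without a filter called 2 lower, against 0 in both directions with the others. In the 7 other gene lists, 2 genes were lower and 2 higher at an unadjusted p under 0.05 without TMM, and 2 were lower with limma-voom. With each tumor left out in turn these numbers ran from 0 to 4 lower and from 2 to 8 higher. The causes were not tested. *Ass1* and *Slc25a15* kept their sign under all alternatives, from 0.022 to 0.81 and from 0.45 to 0.93. *Asl* turned to -0.024 without TMM and to -0.10 with hepatocyte scaling, where *Slc25a13* turned to -0.067. That scaling moved the median of all genes to -0.080. The other 7 genes turned sign when single tumors were left out, within -0.15 to 0.58 for *Cps1*, -0.31 to 0.30 for *Otc*, -0.28 to 0.46 for *Asl*, -0.015 to 0.40 for *Arg1*, -0.065 to 0.22 for *Nags*, -0.23 to 0.33 for *Slc25a13* and -0.32 to 0.20 for *Gls2*. The difference in the log2 ratio ran from -0.12 to 0.35 for *Gls2* to *Glul* and from -0.35 to 0.63 for *Cps1* to *Cad*. No paired analysis was possible because the groups share no replicate number. Each group had 3 tumors, and each urea cycle gene had 865 counts or more in every tumor. How far group size, the spread between tumors and depth limit what could be detected was not tested.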
